A study of Mus musculus with 2 samples.

Results

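The genes described here encode the aminoacyl-tRNA synthetases of mouse gastrocnemius, the large muscle of the calf. A gene was taken by its symbol (a letter of the amino acid code followed by "ars", with or without a final digit, or Eprs, Farsa, Farsb or Tarsl2) and by having at least 1 protein-coding transcript. The rule used no measured value and gave 38 of the 55536 genes in the gene table, or 38 of its 22028 protein-coding genes. Of these, 21 were counted as cytosolic and 17, with symbols ending in 2, as mitochondrial. Tarsl2, a threonyl-tRNA synthetase paralogue, also has a symbol ending in 2 but was counted as cytosolic.

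Total RNA from which ribosomal RNA had been reduced was sequenced from 2 female B6CASTF1/J mice aged 2 months, from The Jackson Laboratory, with 300 ng of RNA and ERCC spike-in RNA per library. B6CASTF1/J mice are first-generation hybrids of the B6 and CAST strains, and the labels name no treatment. They form 1 group, called animal 1 and animal 2 here, so the data hold no contrast of conditions and no test was made. The labels number the mice separately but attach the same donor record to both, without saying whether it means the strain or 1 mouse. If the mice were not separate, the SDs below measure technical spread only. Gene counts summed to 45014831 in animal 1 and 47771308 in animal 2.

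The tissue was checked by marker genes. Fast fibre markers such as Acta1 and Ckm summed to 64701 and 62306 TPM (transcript abundance scaled to length and to a fixed sum per library) in animals 1 and 2. The libraries differed in other tissue parts. Slow fibre markers summed to 484 and 2666 TPM, with 6 of 6 higher in animal 2, and adipocyte markers to 772 and 99.6 TPM, with 7 of 7 lower in animal 2. Schwann cell markers summed to 244.9 and 33.0 TPM, with 5 of 5 tested lower in animal 2. Tenocyte markers were higher in animal 2 in 6 of 6. Macrophage markers were lower in 5 of 5 tested, and smooth muscle and pericyte markers in 5 of 6. Endothelial, fibroblast and satellite cell markers were mixed in direction. No marker of the 10 lists examined had 0 reads in both animals. In whole tissue, fewer cells of a type and less RNA per cell cannot be told apart.

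Aminoacyl-tRNA synthetases join each amino acid to its matching tRNA, using ATP, and so fix the genetic code at the step before the ribosome. Cytosol and mitochondria translate with separate tRNA sets. Most amino acids have one nuclear gene for the cytosolic enzyme and another for the mitochondrial one, while Gars and Kars supply both compartments. Mitochondria have no glutaminyl-tRNA synthetase of their own and make glutaminyl-tRNA with an amidotransferase from glutamyl-tRNA. Muscle, rich in contractile protein and in mitochondria, needs both systems.

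All 38 genes were detected, meaning at least 1 TPM in both animals. Of all protein-coding genes, 46.5% met that level. The 38 genes together summed to 626.4 TPM in animal 1 and 598.95 TPM in animal 2, of which the cytosolic genes held 511.4 and 489.04 TPM and the mitochondrial genes 114.99 and 109.9 TPM. The cytosolic genes had a median of 22.0 ± 1.04 TPM (SD of the medians, n = 2) and the mitochondrial genes 5.67 ± 0.01 TPM. The classes overlapped: 14 of 21 cytosolic genes lay above the highest mitochondrial gene, and 4 of 17 mitochondrial genes lay above the lowest cytosolic gene. In the second transcript table, a separate quantification of the same reads, Lars2 was the highest mitochondrial gene at 35.7 TPM and 7 cytosolic genes lay above it. Cytosolic levels spanned 5.36-fold and mitochondrial levels 12.2-fold from lowest to highest. In the order of all 38 mean levels, 21 of the 37 neighbouring pairs overlapped between animals, so many adjacent places in that order are not separated by these data.

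**Figure D1:**
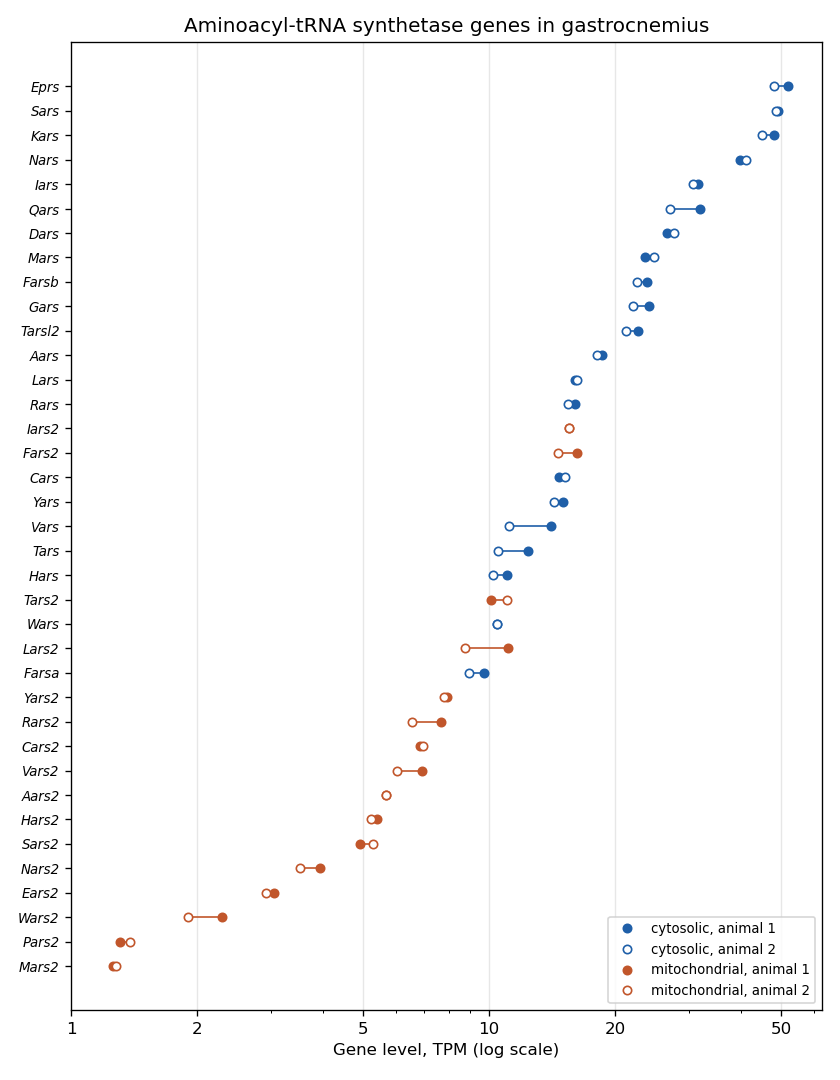
TPM of 37 synthetase genes in the gene table on a log axis, with genes ordered by mean level, filled points for animal 1 and open points for animal 2, blue for cytosolic and orange for mitochondrial genes. The upper 14 places are cytosolic, and Farsa is the lowest cytosolic gene at a mean of 9.32 TPM.

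Eprs had the highest level in the gene table, Kars in the second table (70.99 TPM, with Eprs at 69.8) and Sars over coding transcripts of the first (48.5 TPM, with Eprs at 46.9). Eprs encodes a single protein that charges both glutamate and proline tRNAs, at chr1:185363044-185428360 on the plus strand (mm10). It stood at 51.95 TPM in animal 1 and 48.1 in animal 2, and 95.7% of protein-coding genes had a lower mean. Sars, the serine enzyme, followed at 49.1 and 48.5 TPM and overlapped Eprs between animals. Kars, the lysine enzyme, stood at 48.1 and 44.9 TPM, and Nars, the asparagine enzyme, at 39.7 and 41.2 TPM.

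In animals, 8 cytosolic synthetases are held in a large assembly, the multisynthetase complex. Their genes, Dars, Eprs, Iars, Kars, Lars, Mars, Qars and Rars, had a median of 28.2 ± 1.25 TPM. The other 13 cytosolic genes had a median of 15.1 ± 0.08 TPM. Within the complex, levels ran from 15.7 TPM for Rars (arginine) to 50.01 TPM for Eprs, a span of 3.18-fold. Iars (isoleucine) stood at 31.5 and 30.8 TPM, Dars (aspartate) at 26.6 and 27.6 TPM, and Mars (methionine) at 23.6 and 24.7 TPM. Qars, the glutamine enzyme, stood at 31.96 and 27.0 TPM and varied most of the 8 in TPM. The complex also holds 3 scaffold proteins without synthetase activity. Aimp1 stood at 27.6 and 27.7 TPM and Aimp2 at 37.3 and 33.1 TPM, inside the range of the 8 enzymes, and Eef1e1 at 5.09 and 5.68 TPM, below all of them.

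Among cytosolic genes outside the complex, Sars was highest and Farsa lowest. Farsa and Farsb encode the α and β subunits of the cytosolic phenylalanine enzyme, an assembly with equal numbers of each. Farsa had 9.71 and 8.94 TPM and Farsb 23.8 and 22.5 TPM. Farsb was the higher in both animals, by a log2 ratio of 1.30 ± 0.03, or 2.47-fold. The ratio was 3.63-fold in the second transcript table and 2.57-fold or 2.66-fold when coding transcripts alone were summed in the first or second table.

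Tarsl2, at chr7:65644898-65692091, stood at 22.7 and 21.2 TPM. Tars, the main cytosolic threonine enzyme gene, at chr15:11382301-11399665, stood at 12.4 and 10.5 TPM. The paralogue was therefore above Tars in both animals, by 1.92-fold (log2 0.94 ± 0.10). The size depended on the table and the transcripts summed: it was 1.29-fold in the second table, and 2.78-fold and 3.20-fold over coding transcripts of the first and second tables. Tarsl2 was above Tars in all 4 readings.

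The promoters of 28 of the 38 genes were found by symbol in a RefSeq table (GRCm38.p6) of windows from 250 bases before to 50 bases after a gene's start, 14 of each class. Nars, Lars, Rars, Cars, Vars, Hars, Wars, Hars2 and Pars2 are among those with no entry. Many cytosolic synthetase genes are known targets of ATF4, a transcription factor induced by amino acid shortage, which binds with C/EBP proteins at a composite element. Its core, TGATGNAA, was searched on both strands. It was found in 5 of 14 cytosolic genes (Aars, Gars, Iars, Tars and Yars), in 0 of 14 mitochondrial genes and in 4.51% of all 27025 genes with a window. The form TGATGCAA, a subset of it, was found in 4 of the 14 cytosolic genes and 1.03% of all genes with a window. One match for each of the 5 genes is shown, to mark which members carry the element. Each is written in the direction of the gene with the match in capitals, and a match on the opposite strand appears as the reverse complement of the core.
Yars, chr4:129189895-129189924, plus strand: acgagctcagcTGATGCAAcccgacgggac
Gars, chr6:55037960-55037989, plus strand: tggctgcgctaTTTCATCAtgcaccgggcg
Aars, chr8:111033840-111033869, plus strand: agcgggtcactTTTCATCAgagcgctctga
Iars, chr13:49682126-49682155, plus strand: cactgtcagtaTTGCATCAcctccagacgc
Tars, chr15:11399655-11399684, minus strand: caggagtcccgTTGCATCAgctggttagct

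In the Tars, Iars and Yars windows the match began at positions -15, 8 and 4 from the RefSeq start, and in Gars at -30. The match shown for Aars began at 10. The E-box CACGTG, a palindrome, was also searched. It was in 4 cytosolic genes (Aars, Farsb, Iars and Tars), in 1 mitochondrial gene (Ears2) and in 8.09% of all genes with a window. These matches describe letters in a window and no binding was measured here.

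Among mitochondrial genes, Iars2 (isoleucine) had the highest mean in the gene table, at 15.5 TPM in both animals, with Fars2, the single-chain mitochondrial phenylalanine enzyme, beside it at 16.2 and 14.6 TPM. Tars2 (threonine) stood at 10.1 and 11.03 TPM and Lars2 (leucine) at 11.1 and 8.73 TPM. These 4 were the mitochondrial genes above the lowest cytosolic gene. The middle of the class ran from Yars2 (tyrosine), at 7.91 and 7.81 TPM, through Rars2, Cars2, Vars2, Aars2 and Hars2 to Sars2 (serine), at 4.92 and 5.26 TPM. Below them came Nars2 (asparagine) at 3.93 and 3.53 TPM, Ears2 (glutamate) at 3.06 and 2.93 TPM and Wars2 (tryptophan) at 2.30 and 1.90 TPM. The lowest were Pars2 (proline), at 1.31 and 1.38 TPM from 80 and 84 reads, and Mars2 (methionine), at 1.26 and 1.28 TPM from 532 and 573 reads. Mars2 has 1 annotated transcript, of 11294 bases, and its level per length was as low as that of Pars2 although its reads were more. Its low TPM rests on that annotated length: Fars2, at 16.2 and 14.6 TPM, had 610 and 678 reads.

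Cytosolic and mitochondrial genes for the same amino acid were paired within each animal, giving 18 pairs, in which Eprs and Fars2 each enter more than once. The ratio is log2 of cytosolic over mitochondrial TPM, each with 0.1 added, and was called larger than the spread when its mean exceeded 2 SD and its sign was the same in both animals. The cytosolic gene was higher in 17 of 18 pairs and beyond the spread in 16. The median log2 ratio was 1.12, or 2.18-fold. Over the 14 pairs without Eprs, Farsa and Farsb, 13 were higher in the cytosolic gene beyond the spread.

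**Figure D2:**
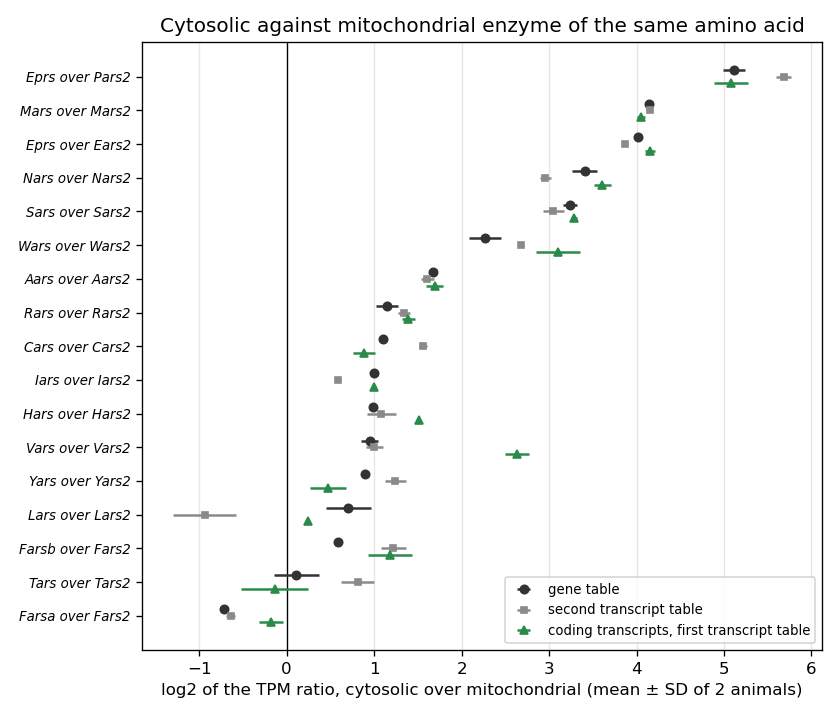
Log2 ratio of cytosolic over mitochondrial TPM for 17 pairs, as the mean ± SD of 2 animals, from the gene table (black circles), the second transcript table (grey squares) and coding transcripts of the first transcript table (green triangles). In the gene table all pairs but Farsa over Fars2 lie above 0, and Lars over Lars2 lies at -0.94 in the second table.

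The widest pairs paired a high cytosolic gene with a low mitochondrial one. Eprs was above Pars2 by a log2 of 5.12 ± 0.13 (34.7-fold) and above Ears2 by 4.02 ± 0.04 (16.2-fold). Mars was above Mars2 by 4.15 ± 0.03 (17.7-fold), Nars above Nars2 by 3.41 ± 0.14 (10.6-fold) and Sars above Sars2 by 3.24 ± 0.08 (9.43-fold). The methionine ratio rests in part on the long Mars2 transcript: Mars had 1919 and 1962 reads and Mars2 532 and 573. At the narrow end, the isoleucine, histidine, valine and tyrosine pairs had log2 ratios between 1.00 and 0.89. The pair for phenylalanine was the only one with a higher mitochondrial gene. Farsa was below Fars2 by a log2 ratio of -0.72 ± 0.02 while Farsb, the other subunit, was above it by 0.59 ± 0.05. Over coding transcripts Farsa over Fars2 was -0.18 ± 0.14, within the spread.

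The order of the threonine and leucine pairs also depended on the values used. Tars over Tars2 was 0.30 in animal 1 and -0.07 in animal 2 (0.11 ± 0.26), within the spread. In the second table it was 0.81 ± 0.19, and over coding transcripts -0.14 ± 0.38. With Tarsl2 in place of Tars, the ratio over Tars2 was 1.05 ± 0.16. Lars over Lars2 was 0.71 ± 0.25 in the gene table and 0.24 over its coding transcripts, but -0.94 ± 0.36 in the second table, where coding transcripts alone gave 0.19. Restriction to coding transcripts widened the valine pair from 0.95 to 2.63.

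The deposited tables could be set against each other gene by gene. The gene table and first transcript table share one quantification from a transcriptome alignment, and the second transcript table is another, made from the same reads. For protein-coding genes at 1 TPM or more, the second table read higher by a median of 1.48-fold in animal 1 and 1.45-fold in animal 2, and was rescaled by that shift. After rescaling, 2 of 38 synthetase genes differed by 1.5-fold or more, against 6.38% of all such genes, and 1 of 38 by 2-fold, against 1.51%. Lars2 was higher in the second table by a log2 of 1.27 and Pars2 lower, at -0.64. The nearest gene within the 1.5-fold limit was Farsb at 0.56.

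For Lars2, at chr9:123366927-123462666, the second table gave 42.4 and 28.95 TPM, and 2 transcripts made most of the gap. Lars2-205, a retained-intron transcript, had 14.2 and 9.03 TPM there and 0.06 and 0 in the first transcript table. Lars2-209, typed as a target of nonsense-mediated decay, had 13.9 and 6.22 TPM there against 1.78 and 0.52 TPM. The protein-coding Lars2-201 was closer, at 11.8 and 11.5 TPM against 8.60 and 7.74 TPM. None of these values was rescaled, and the second table read higher by a median of 1.48-fold in animal 1 and 1.45-fold in animal 2.

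**Figure D3:**
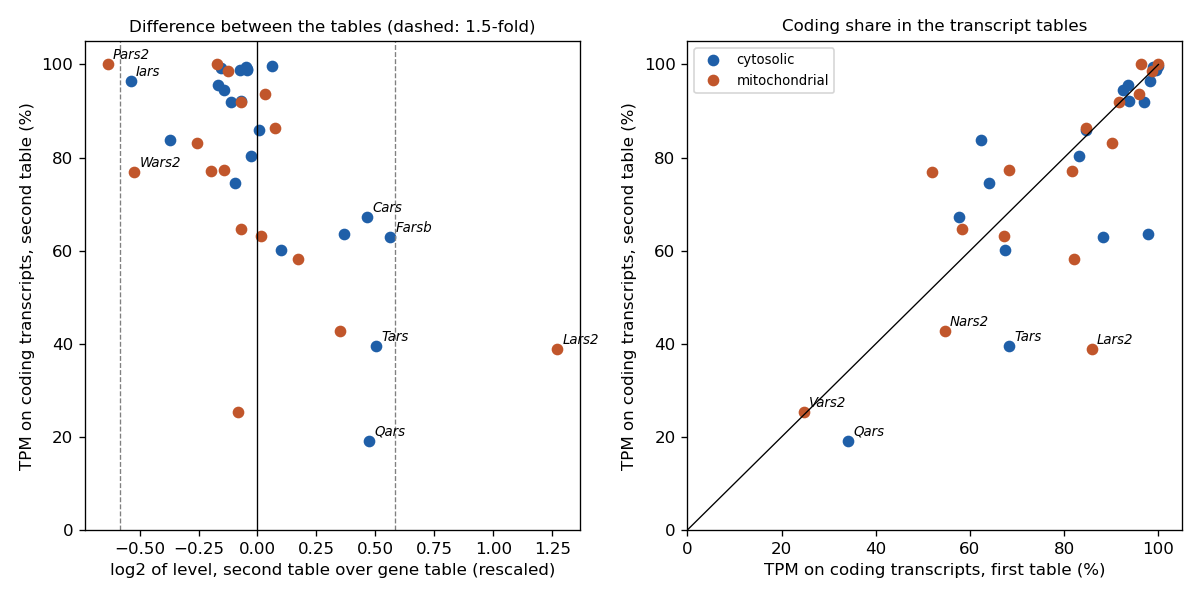
Left, for 37 synthetase genes, the rescaled log2 level in the second transcript table over the gene table (x axis) against its percent of TPM on coding transcripts in the second table (y axis), with dashed lines at 1.5-fold. Right, that percent in the first table (x axis) and the second (y axis). Lars2 stands alone on the right of the left panel, at 1.27 and 38.8%.

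Total RNA holds unspliced and non-coding transcripts beside mRNA. The share of a gene's TPM on coding transcripts had a median of 87.0% over the 38 genes in the first transcript table and 83.4% in the second. It was under 50% in 3 genes of the first table, against 7.51% of protein-coding genes at 1 TPM or more, and in 6 genes of the second, against 9.86%. Vars2 (valine) had a coding share of 24.8% and Qars 34.2% in the first table, and both stayed under 50% in the second. Lars2, Tars and Nars2 joined them in the second table at 38.8%, 39.5% and 42.8%. Where a share was under 50%, most of the gene's TPM in that table lay on transcripts that are not typed as coding. In the first table the coding shares of Lars2, Tars and Nars2 were 85.8%, 68.4% and 54.7%.

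In 3 genes the leading transcript of the first table was not coding, against 6.54% of such genes, and in 4 genes of the second, against 8.45%. Qars was led by Qars-231, typed nonsense-mediated decay, at 13.6 and 13.0 TPM. Vars2 was led by the retained-intron transcript Vars2-211, at 2.12 and 2.05 TPM. Nars2 joined them in the second table through Nars2-204, a processed transcript at 2.43 and 1.88 TPM. The tables named different leading transcripts for Kars, Nars, Farsb, Fars2 and Nars2, 5 of the 37 genes with 2 or more transcripts, against 23.6% of all such genes.

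Kars, at chr8:111993443-112011323 on the minus strand, is known to make both the cytosolic and the mitochondrial lysine enzyme from one gene by alternative splicing near its start. The annotation holds 2 first coding exons for it, which join the same later exon. The coding sequence of Kars-201 begins in an exon whose coding part is chr8:112011210-112011268 (59 bases) and has 1785 bases. Those of Kars-202 and Kars-203 begin in an exon with coding part chr8:112008207-112008352 (146 bases) and are the same 1872 bases. Kars-205, a partial transcript, has that first coding exon too. These are coding starts, and where each transcript itself starts was not examined. Both coding starts are printed because the 2 coding sequences differ only there. The first coding exon is in capitals and 24 bases of the shared next coding exon are in lower case.
Kars-201: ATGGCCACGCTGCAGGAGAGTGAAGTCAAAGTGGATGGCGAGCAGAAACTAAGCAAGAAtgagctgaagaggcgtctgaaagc
Kars-202: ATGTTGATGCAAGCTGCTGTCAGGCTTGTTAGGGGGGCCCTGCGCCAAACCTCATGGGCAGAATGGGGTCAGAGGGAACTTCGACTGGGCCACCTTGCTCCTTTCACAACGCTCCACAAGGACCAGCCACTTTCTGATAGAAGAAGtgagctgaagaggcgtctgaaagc

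The tables gave opposite accounts of these starts. In the first transcript table Kars-201 had 28.7 and 26.1 TPM and transcripts with the longer start 19.4 and 18.7 TPM, so that Kars-201 held 58.9% ± 1.01 (SD, n = 2) of the sum. In the second table Kars-201 was listed at 0 in animal 1 and 2.3e-08 TPM in animal 2, and transcripts with the longer start at 73.7 and 67.9 TPM. The gene as a whole did not move: its rescaled difference between tables was a log2 of 0.06. The animals agreed within each table, so the replicates do not show which division is right. The balance of the lysine enzyme's 2 starts is not settled by these files. The processed pseudogene Kars-ps1 had 0 reads in both animals.

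**Figure D4:**
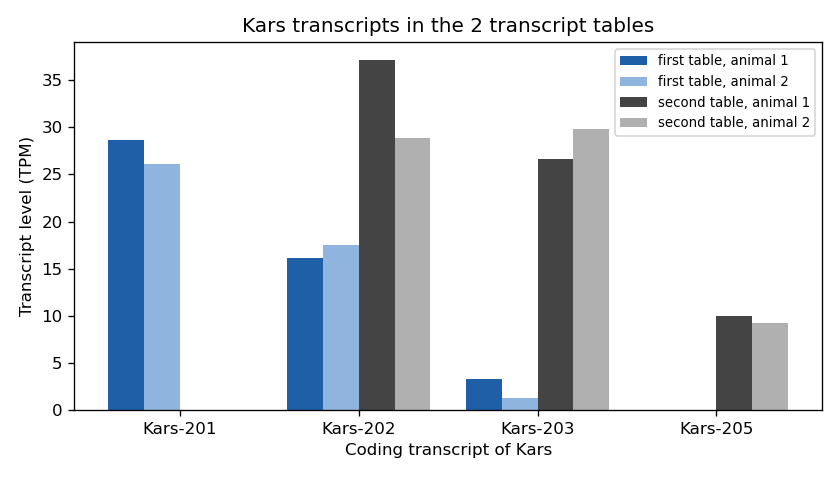
TPM of the 4 coding Kars transcripts with a value above 0, by animal, in the first transcript table (blue) and the second (grey). Kars-201 is present at 28.7 and 26.1 TPM in the first table only, and Kars-202, Kars-203 and Kars-205 are higher in the second.

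Between the animals, synthetase genes stayed close. The comparison is log2 of scaled expected counts, animal 2 over animal 1, for the 37 genes with a mean of 100 reads or more, which leaves out Pars2. None of the 37 differed by 1.5-fold, against 8.03% of all 10872 genes past that count, and none by 2-fold, against 2.97%. The median size of the difference, regardless of sign, was 0.07 for the synthetases and 0.14 for all those genes. Among the genes furthest apart were Lars2 at -0.22, with 1513 and 1280 reads, and Tars2 at 0.29, with 708 and 849 reads. There is 1 library for each animal, so these differences have no replicate check.

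An exact binomial interval of 95%, which covers counting error only, lay clear of 0 in 11 of the 37 genes, against 47.8% of all tested genes. Of the 11, 8 were higher in animal 2 and 3 lower. Tars2 (0.14 to 0.43), Cars2 (0.05 to 0.46) and Dars (0.11 to 0.28) were among the higher ones. The lower ones were Lars2 (-0.33 to -0.11), Vars (-0.27 to -0.07) and Tars (-0.25 to -0.02). These intervals and directions use edgeR TMM factors, the main scaling here. Under it the threonine genes lay on opposite sides, with Tars at 1341 and 1203 reads and Tars2 at 708 and 849 reads. With library size alone they stayed opposite, at -0.24 for Tars and 0.18 for Tars2. With the spike-in total both were higher in animal 2, at 0.07 and 0.48. Vars was then at 0.03 and Lars2 at -0.02.

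**Figure D5:**
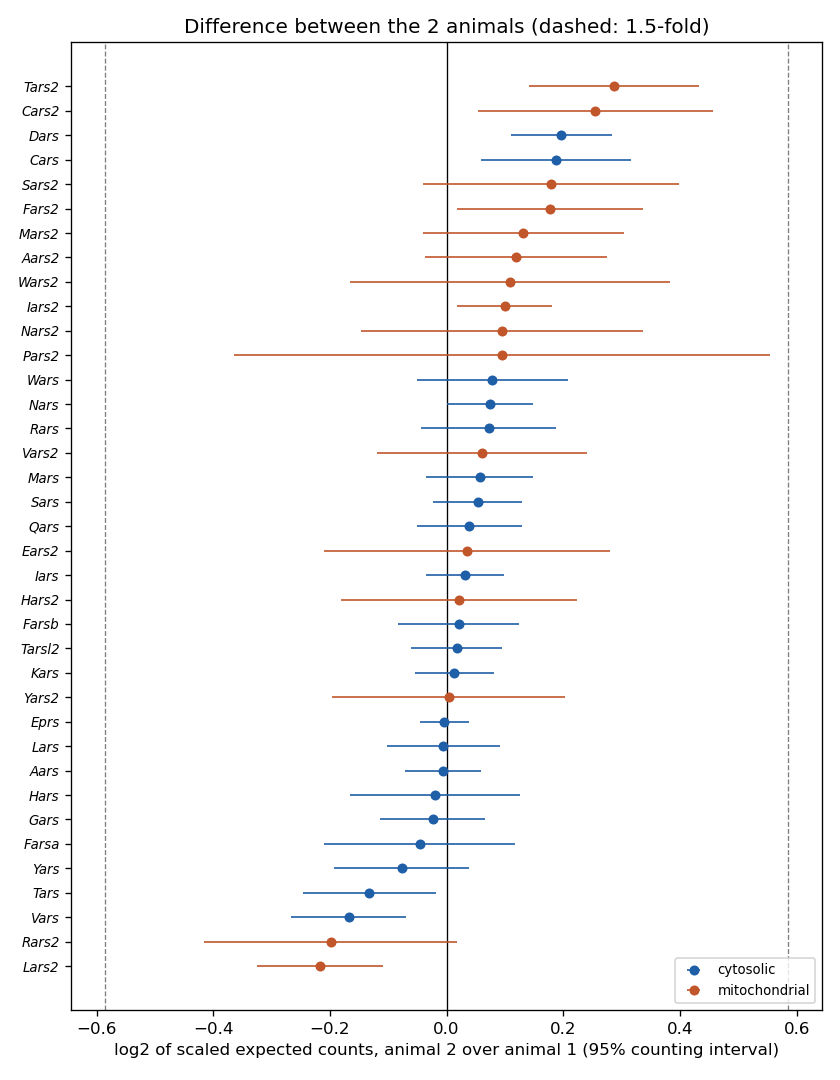
Log2 ratio of scaled expected counts, animal 2 over animal 1, for 37 synthetase genes with 95% counting intervals. Blue marks cytosolic and orange mitochondrial genes, with dashed lines at 1.5-fold. No count filter was applied, so Pars2 is included. Every point shown lies between Lars2 at -0.22 and Tars2 at 0.29, and intervals are wider for genes with fewer reads.

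By direction, 26 of 37 were higher in animal 2, against 54.8% of all tested genes, comprising 12 of 21 cytosolic and 14 of 16 mitochondrial genes. Their medians were 0.02 and 0.10, and that of all tested genes 0.02. Lars2 and Rars2 were the 2 mitochondrial genes lower in animal 2. This count depended on the scaling: with library size alone 9 of 37 were higher (2 of 21 cytosolic, 7 of 16 mitochondrial, 31.9% of all tested genes), and with the spike-in total 35 of 37 (21 of 21, 14 of 16, 80.6%). The median of all tested genes shifted to -0.09 and 0.22 under those scalings, so a direction here is relative to the other genes. Mitochondrial genes have fewer reads. With TMM factors, 13 of 14 mitochondrial genes with means of 100 to 1000 reads were higher in animal 2, against 45.9% of all genes in that range. The median log2 of those 14 was 0.11, and the counting intervals of several held 0. In that range 2 of 4 cytosolic genes were higher. Among genes with 1000 to 10000 reads, 10 of 17 cytosolic and 1 of 2 mitochondrial genes were, against 68.4%. Slow fibre markers were higher in animal 2, as given above, and their part in this pattern was not tested.

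TPM and reads did not always move together. Wars2 had 2.30 and 1.90 TPM but 216 and 229 reads, and Qars 31.96 and 27.0 TPM but 1979 and 1999 reads. For these genes the TPM difference is not matched by a difference in reads.

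The start of 10 of the 38 genes lay within 1000 bp of the start of another protein-coding gene on the other strand, against 16.8% of protein-coding genes at 1 TPM or more. Hars and Hars2, the cytosolic and mitochondrial histidine genes, are such neighbours, and their annotated 5′ ends overlap, with starts 197 bases apart. Without a stated strand setting, reads in that overlap cannot be assigned to one of them. Hars had 11.1 and 10.2 TPM and Hars2 5.39 and 5.21 TPM. Sars2 faces Mrps12, a gene of the mitochondrial ribosome, at 172 bp, and Mrps12 had 12.9 and 14.7 TPM. Kars and Terf2ip (75 bp), Yars and S100pbp (33 bp), and Rars2 and Orc3 (13 bp) do not overlap. Fars2 and Lyrm4, Ears2 and Ubfd1, and Wars and Wdr25 overlap at their 5′ ends, with starts 114, 88 and 543 bases apart.

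Genes that work beside the synthetases were read from 9 lists of 65 genes. Of these, 55 were detected, against 46.5% of all protein-coding genes. The amidotransferase that makes mitochondrial glutaminyl-tRNA was complete: Qrsl1 had 7.14 and 6.98 TPM, Gatb 5.96 and 7.03 TPM and Gatc 11.3 and 10.03 TPM. Qrsl1 and Gatb lay near the middle of the mitochondrial synthetases and Gatc above most of them. All 9 mitochondrial translation factors were detected, with a median of 9.47 TPM, led by Tufm, which carries charged tRNA to the mitochondrial ribosome, at 53.1 and 50.7 TPM. All 9 were higher in animal 2 (median log2 0.21), against 54.8% of all tested genes, or 6 of 9 against 31.9% with library size alone. Mtfmt, which formylates the initiator methionyl-tRNA made by Mars2, was low in TPM like it, at 1.97 and 2.03 TPM.

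In the cytosol, charged tRNA is carried by eEF1A, made in adult muscle mainly from Eef1a2. Eef1a2 stood at 696 and 781 TPM and Eef1a1 at 299.9 and 199.7 TPM, and Eef1a1, which has many near-identical pseudogenes, is uncertain. All 6 cytosolic elongation genes were detected, with a median of 207.5 TPM, above every synthetase median given here. Eef2, the translocation factor, stood at 431.8 and 404 TPM. The 4 genes for proofreading in trans, which clear mischarged or D-amino-acid tRNAs, were all detected, from Dtd2 at 1.89 and 1.74 TPM to Aarsd1 at 8.31 and 8.94 TPM. The selenocysteine genes were detected in 6 of 6 and the tRNA end processing genes in 6 of 7, with Pop1 at 0.98 and 1.01 TPM just at the limit.

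ATF4 target genes were read because they share a regulator with 13 cytosolic synthetase genes (Aars, Cars, Eprs, Gars, Iars, Lars, Mars, Nars, Sars, Tars, Wars, Yars and Vars). Those 13 had a median of 18.4 TPM and a median log2 difference between animals of -0.00, with 6 higher and 7 lower in animal 2, against 54.8% of all tested genes higher. With library size 1 of 13 was higher, against 31.9%, and with spike-ins 13 of 13, against 80.6%. Atf4 itself had 56.6 and 52.3 TPM. Of the 24 listed genes that are not synthetases (Atf4 included), 15 were detected, against 46.5% of all protein-coding genes. Enough reads to compare were present for 17, with 7 higher and 10 lower in animal 2. With library size 5 of 17 were higher, against 31.9%, and with spike-ins 11 of 17, against 80.6%. With TMM factors, the main scaling, 1 was higher at 1.5-fold, against 2.44% of all tested genes, and 4 were lower, against 5.59%. The higher one was Chac1, a glutathione-degrading enzyme, at 4.49 and 10.8 TPM (log2 1.38).

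The 4 lower ones were Asns, asparagine synthetase, at 2.21 and 0.62 TPM (log2 -1.71), Phgdh, of serine synthesis, at 2.29 and 0.67 TPM (-1.65), Sesn2 (-1.04) and Atf3 (-0.88). Eif4ebp1, at -0.56, lay just inside the limit. The products of Asns and Phgdh make asparagine and serine, and the genes that charge those amino acids differed little: Nars by 0.07 and Sars by 0.05. Adipocyte and Schwann cell markers were lower in animal 2 as well, and their part in the differences of Asns and Phgdh was not tested. Fgf21 had 0 reads in both animals. Of the sensing kinase genes, Eif2ak4, which binds uncharged tRNA, had 1.71 and 1.49 TPM, and Gcn1l1, its activator, 12.6 and 11.5 TPM.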

How the data were processed

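Total RNA-seq of 2 libraries of 1 group was read from gene and transcript tables that the authors deposited. Expected counts and TPM came from the gene table and first transcript table, in the RSEM column layout per the file headers. Estimated counts and TPM came from the second transcript table, in the kallisto layout per the file headers. A posterior SD of each count, another deposited value, was 0 for 35 of the 38 genes and at most 0.62 reads. Build and annotation, mm10 and GENCODE M21, are named in the file lists as deposited. The sources used here do not state the aligner, the versions or a strand setting. CAST alleles counted on mm10 can be lost.

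Rows without a gene name (26249, with 4 and 5 reads, 8.89e-06% and 1.05e-05% of counts) and 96 spike-in rows (216553 and 185528 reads) stayed out of library sizes. Expected counts were rounded for scaling. Animal ratios used edgeR 4.0.16 TMM factors and a prior count of 0.5; TPM ratios a pseudocount of 0.1. Intervals are exact binomial (Clopper-Pearson). Reads are not independent molecules, so intervals cover counting error only. The ratio script was checked on simulated counts. Alternatives were DESeq2 1.42.0 size factors, library size, spike-ins, other filters, pseudocounts and prior counts, coding transcripts only, the second table, and each library left out. Software was matplotlib 3.10.9, scipy 1.17.1, pandas 2.3.3, numpy 2.4.6, Python 3.11.15 and R 4.3.3.

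The gene set and lists were chosen with earlier results of these data known. Every synthetase, any list gene, defining markers and neighbouring genes could be named. Of the lists, Gcn1 was not matched by that symbol and Gcn1l1 was. No test was possible with 1 group. One gene of the set and one promoter match are not reported here, and the figures leave that gene out.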

Additional observations from a re-analysis of the deposited data

How the results depend on the processing

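Detection of all 38 genes held at 0.5 TPM, in the second table and with each library left out, and 31 reached 5 TPM. The share of all protein-coding genes was taken at 1 TPM only, so these counts have no such share beside them. The cytosolic median was 30.7 TPM in the second table, 17.0 over coding transcripts and 20.6 with Tarsl2 counted as mitochondrial; the mitochondrial median was 8.19, 4.58 and 6.05 TPM. With a library left out they ranged from 21.2 to 22.7 and from 5.67 to 5.68 TPM. The medians of the second table were not rescaled. That table read higher for protein-coding genes at 1 TPM or more by a median of 1.48-fold in animal 1 and 1.45-fold in animal 2. The same 16 of 18 pairs had the cytosolic gene higher beyond the spread under both pseudocounts and over coding transcripts. The second table also gave 16, of which 15 were shared, with Lars over Lars2 lost and Tars over Tars2 gained. The median log2 pair ratio was 1.03 with a pseudocount of 1, 1.45 in the second table and 1.60 over coding transcripts, and 1.07 to 1.17 with a library left out. Lars over Lars2 reversed to -0.94 in the second table. There, after rescaling, Lars2 read higher by a log2 of 1.27, mostly through the transcripts named above, and Lars lower, at -0.37.

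Library size alone lowered the number of genes higher in animal 2 from 26 to 9 (2 cytosolic, 7 mitochondrial). The share of all tested genes fell from 54.8% to 31.9%. Spike-in scaling raised the cytosolic number to 21 and the median log2 to 0.24, where all tested genes had a median of 0.22. No synthetase gene with a mean of 100 reads passed 1.5-fold under any scaling tried. Between tables, the median log2 was -0.059, or -0.010 with a pseudocount of 1. With a library left out it was -0.049 to -0.040, with 3 to 4 genes past 1.5-fold. The share of all genes past that fold was taken over both libraries only. The median coding share was 83.4% in the second table and 86.3% to 88.3% with a library left out. No paired analysis was possible because there is 1 group. Leaving out a library for the ratio between animals could not be run, since it needs both. Depth limits Pars2 most, at 80 and 84 reads.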
